A study of Mus musculus with 2 samples.

Results

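The clustered protocadherins are cell surface proteins of the cadherin family whose genes stand in 3 neighbouring clusters, alpha, beta and gamma, on mouse chromosome 18. The deposited table of gene activity lists 58 of them among its 24165 RefSeq entries, chosen here by symbol alone: 14 alpha, 22 beta and 22 gamma genes, with 1 entry each. The activities come from global run-on sequencing (GRO-seq), in which engaged RNA polymerases in isolated nuclei extend their transcripts with bromouridine and the labelled RNA is sequenced, so each read places an engaged polymerase on a strand. The study made 2 replicate libraries of untreated C2C12 myoblasts, an established mouse line of muscle precursor cells, grown to 80% confluency with 4 plates for each nuclei isolation, and pooled them, so there is a single group and no control. Activity is given in RPKmM, an RPKM (read number per kilobase, scaled to sequencing depth) of the sense strand that uses only mappable bases, counted from 1 kb downstream of the transcription start site to the end of the gene. An entry holds the word Inactive in place of a number where the authors could not tell its read density from that of gene deserts.

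A clustered protocadherin is made from a large variable exon that encodes the extracellular cadherin repeats, the membrane span and part of the cytoplasmic tail. Each variable exon has a promoter of its own. In the alpha and gamma clusters the chosen variable exon is spliced to 3 constant exons at the far end of the cluster, so that every alpha gene shares its downstream exons with the others, and every gamma gene likewise. The beta genes have no constant exons and each is a separate short gene. In neurons, a few promoters of each cluster are chosen in a given cell, with the architectural protein CTCF and cohesin bringing them to distant enhancers, and the combination of isoforms gives the cell a surface identity used in self-avoidance and in the formation of synapses. The C-type genes, Pcdhac1, Pcdhac2, Pcdhgc3, Pcdhgc4 and Pcdhgc5, stand at the downstream ends of the alpha and gamma clusters and are regulated separately from the A and B types. A gene body value does not tell which promoter a polymerase started from. An alpha or gamma entry that starts upstream counts all sense reads of the entries that start downstream of it.

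The 3 clusters differed widely in activity. All 22 gamma genes were active, from 0.89 to 2.87 RPKmM, all 14 alpha genes were listed at 0.01 or 0.02, and the beta genes ran from Inactive to 2.37. In all, 50 of the 58 members (86.2%) were called active, against 70.2% of all entries in the table, and the 8 inactive members were all beta genes. Of the members, 31 (53.4%) reached an activity of 0.1, beside 57.2% of all entries. An activity of 1 was reached by 20 members (34.5%), of which 18 were gamma and 2 were beta genes, beside 32.3% of all entries. The shares of members at these 2 levels lay close to those of the whole table. Alpha entries overlap each other and count the same reads again, and so do gamma entries. The counts, medians and ratios given here therefore do not describe separate sets of reads. By the nesting described below, 62.1% of the reads of Pcdhga1 lay past the gene body start of Pcdhgc3. The stretch from Pcdhga1 to Pcdhga12 had a density of only 0.208 RPKmM. The median over active entries was 0.01 for alpha, 0.15 for beta and 1.31 for gamma, and 0.87 over all active entries of the table, with quartiles of 0.22 and 1.99. The gamma median was 1.5 times the median of all active entries. It was 130 times the alpha median, a ratio that can lie from 87.0 to 261 because the alpha median is a single rounding step of 0.01, and 8.7 times the beta median. With inactive entries counted at 0 the beta median was 0.015, and the gamma median was then 87.0 times higher. The libraries were pooled and no value per library was used here, so none of these differences has a replicate error or a test. The table holds no read numbers, and no counting error was computed. In a culture of many cells, fewer cells using a promoter and fewer polymerases per cell cannot be told apart.

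**Figure D1:**
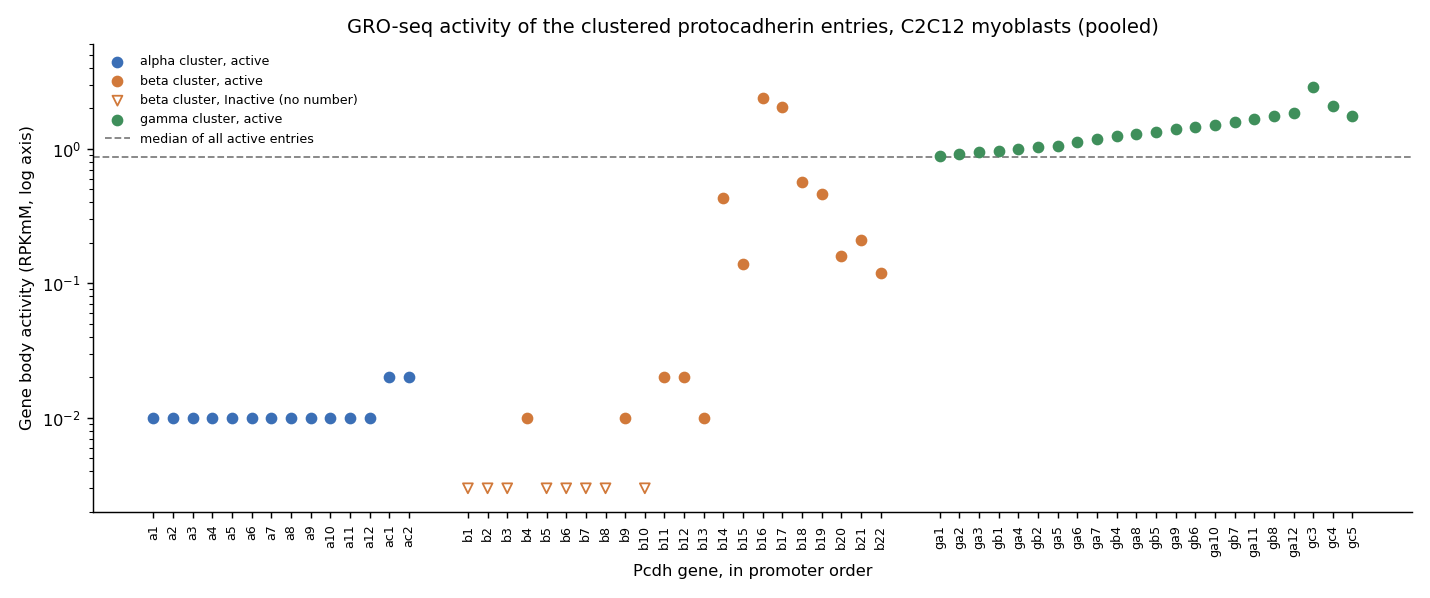
Gene body activity in RPKmM (log axis) of the 58 clustered protocadherin genes in promoter order, with 1 point per gene, for the alpha, beta and gamma clusters. Open triangles are the 8 beta genes marked Inactive, which have no number, and the dashed line is the median of all active entries (0.87), above which all 22 gamma genes and 2 beta genes lie.

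**Figure D2:**
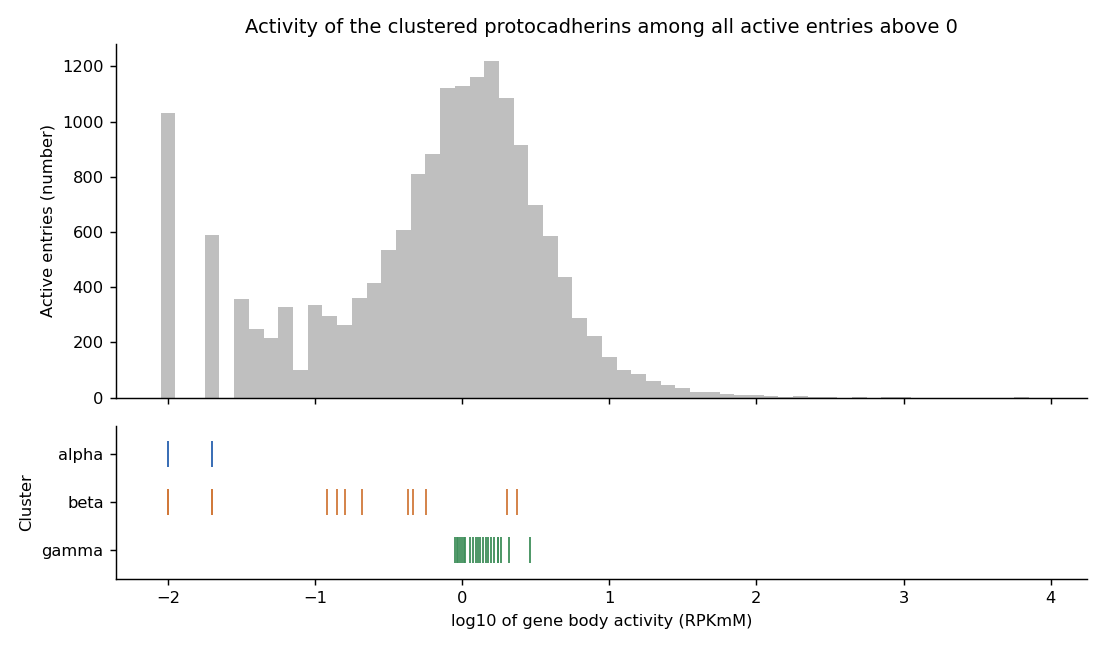
Upper panel, number of active entries of the whole table by log10 of activity in RPKmM, for entries above 0. Lower panel, active members of each cluster on the same axis, 1 tick per gene with equal values drawn on top of each other. The alpha genes sit on the lowest 2 steps of the scale, the gamma genes on the main peak, and the beta genes on both and between.

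On assembly mm9 the alpha cluster lies at chr18:37089939-37347311, the beta cluster at chr18:37424652-37681073 and the gamma cluster at chr18:37821431-38001527, all on the plus strand. Together they span 911.6 kb. The genes next to the clusters were all called active, as were 70.2% of all entries, at widely different levels. Upstream of the alpha cluster stand Wdr55 (1.76 RPKmM), Dnd1 (0.13), the histidyl-tRNA synthetase genes Hars (1) and Hars2 (1.91), and Zmat2, whose activity was 14.66 and which ends 130.6 kb before the start of Pcdha1. Taf7, a subunit of the general transcription factor TFIID, lies between the beta and gamma clusters on the minus strand and was listed at 0.56. Downstream of the gamma cluster stand the formin gene Diaph1 (2.29), the histone deacetylase gene Hdac3 (1.08), Rell2 (0.03), Fchsd1 (0.3) and Arap3 (0.05 and 0.06 for its 2 entries). All 14 alpha entries, at 0.01 or 0.02, lay below each of these neighbours.

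**Figure D3:**
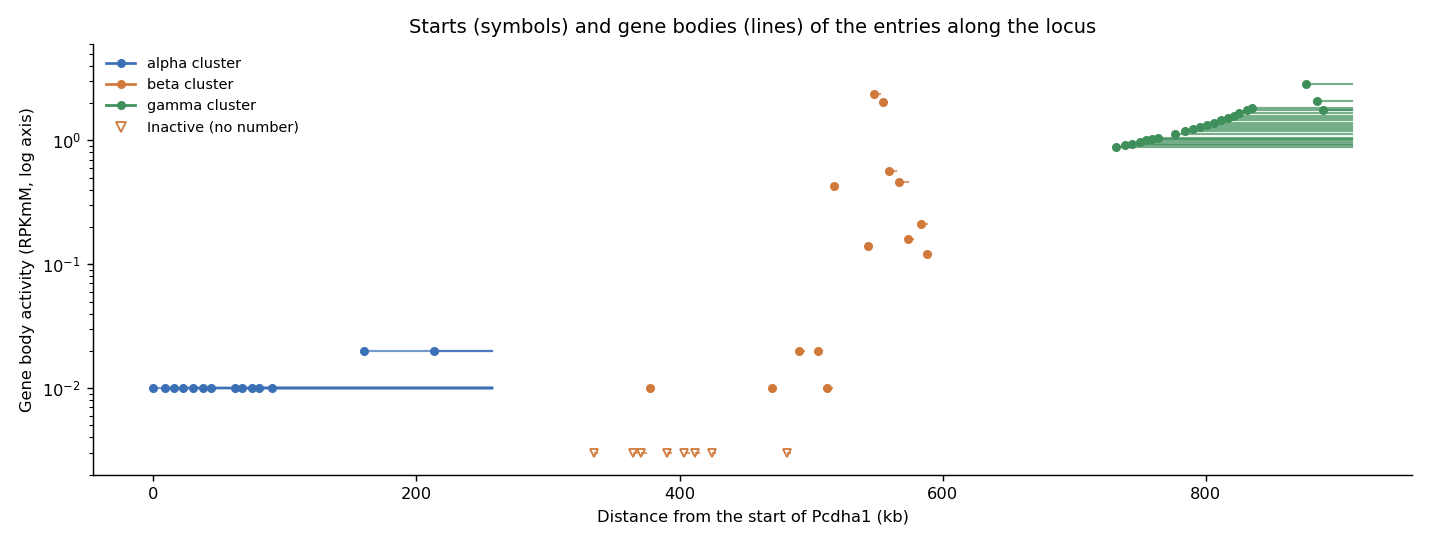
Activity in RPKmM (log axis) against the distance of each gene's start from the start of Pcdha1, in kb, with symbols at the starts and lines along the gene bodies. The lines of alpha genes and of gamma genes run to a shared end, the beta genes are short and separate, and open triangles mark entries without a number.

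The alpha genes Pcdha1 to Pcdha12 were each listed at 0.01 RPKmM, and the C-type genes Pcdhac1 and Pcdhac2 at 0.02. All were called active, although 0.908% of the active entries of the table lay below 0.01 and 6.99% below 0.02. Among the alpha genes the rounding step is as large as the values, so the order of Pcdha1 to Pcdha12 cannot be read from the table. The gene bodies are long, from 256.37 kb for Pcdha1 to 42.69 kb for Pcdhac2. The product of activity and body length gave reads scaled to depth but not to length (RPM), 2.56 RPM for Pcdha1, with rounding bounds of 1.28 and 3.85, 1.93 RPM (1.45 to 2.41) for Pcdhac1 and 0.854 RPM (0.64 to 1.07) for Pcdhac2. The alpha entries were taken to end together at the last annotated end of the cluster, and the gamma entries likewise, since the authors' own coordinates were not used here. With entries nested in this way, the difference between them is the read number of the stretch between their gene body starts. The 160 kb that hold the starts of Pcdha2 to Pcdha12 had a density of 0.00396 RPKmM, with rounding bounds of 0 and 0.015. The stretch from Pcdhac1 to Pcdhac2 had a density of 0.02 (0.00707 to 0.0329), and that from Pcdhac2 to the end, which holds the constant exons, 0.02 (0.015 to 0.025). These bounds overlap or touch, so the table does not resolve a difference in density along the alpha cluster.

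The beta cluster was divided by position. Of Pcdhb1 to Pcdhb13, 5 of 13 were active and none was above 0.02 RPKmM, whereas Pcdhb14 to Pcdhb22 were all active, from 0.12 to 2.37 with a median of 0.43. This division was made after the values were seen. Pcdhb1, Pcdhb2, Pcdhb3, Pcdhb5, Pcdhb6, Pcdhb7, Pcdhb8 and Pcdhb10 were marked Inactive. Pcdhb4, Pcdhb9 and Pcdhb13 were listed at 0.01, and Pcdhb11 and Pcdhb12 at 0.02, in the range of the alpha genes.

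From Pcdhb14 on, the activity was 0.43 RPKmM for Pcdhb14, 0.14 for Pcdhb15, 2.37 for Pcdhb16, 2.03 for Pcdhb17, 0.57 for Pcdhb18, 0.46 for Pcdhb19, 0.16 for Pcdhb20, 0.21 for Pcdhb21 and 0.12 for Pcdhb22. Pcdhb16 and Pcdhb17 thus stood above their neighbours on both sides, and they were the only beta genes above the median of all active entries. Pcdhb16 had 16.9 times the activity of Pcdhb15 and 1.17 times that of Pcdhb17, which in turn had 3.56 times that of Pcdhb18. In the whole table, 79.5% of active entries lay below Pcdhb16 and 75.4% below Pcdhb17, compared with 39.2% below Pcdhb18 and 19.8% below Pcdhb22. Pcdhb14 was listed at 43.0 times the value of Pcdhb13, itself a single rounding step.

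Beta gene bodies are short and separate, so their values are not nested, but some of these genes lie close together. The start of Pcdhb16 lies 1.43 kb after the annotated end of Pcdhb15, the start of Pcdhb17 lies 1.99 kb after the end of Pcdhb16, and that of Pcdhb18 lies 1.18 kb after the end of Pcdhb17. Reads of a polymerase that ran past the end of a gene into the next gene body would be counted there. By activity times body length, the 14 active beta genes together held 22.7 RPM, of which 10.1 lay in Pcdhb16 and 4.61 in Pcdhb17, or 64.8% in these 2 genes, and 99.3% lay in Pcdhb14 to Pcdhb22. For comparison with other short genes, of 4373 entries of genes of 8 kb or less outside the clusters, 2621 were active, with a median of 0.82 among the active. Of the 22 beta genes, 14 (63.6%) were active, with a median of 0.15. Of 301 entries of genes of 8 kb or less with 1 exon outside the clusters, 52.5% were active, with a median of 0.66. Of the 18 beta genes with 1 exon by the same annotation, 61.1% were active, with a median of 0.14.

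The gamma genes were active without exception, and their activity followed the order of their promoters. From the upstream end, the A and B types were listed at 0.89 RPKmM for Pcdhga1, 0.92 for Pcdhga2, 0.94 for Pcdhga3, 0.97 for Pcdhgb1, 1 for Pcdhga4, 1.03 for Pcdhgb2, 1.05 for Pcdhga5, 1.13 for Pcdhga6, 1.18 for Pcdhga7 and 1.24 for Pcdhgb4. The series went on with 1.28 for Pcdhga8, 1.33 for Pcdhgb5, 1.39 for Pcdhga9, 1.45 for Pcdhgb6, 1.51 for Pcdhga10, 1.58 for Pcdhgb7, 1.65 for Pcdhga11, 1.75 for Pcdhgb8 and 1.83 for Pcdhga12. No A or B gene lay below the gene upstream of it, and Pcdhga12 had 2.06 times the value of Pcdhga1. The C-type genes ended the series at 2.87 for Pcdhgc3, 2.09 for Pcdhgc4 and 1.76 for Pcdhgc5. Pcdhgc3 was the highest of the 58 members, 1.57 times Pcdhga12 and 1.21 times Pcdhb16, and 83.8% of the active entries of the table lay below it. The median was 1.15 over the 12 A genes, 1.33 over the 7 B genes and 2.09 over the 3 C genes, and the A and B genes alternate along the cluster.

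The rank correlation of activity with promoter order was 0.992 over the 22 gamma genes and 1.0 over the 19 A and B genes. It was 0.608 over the 14 alpha genes, which hold only 2 distinct values. It was 0.601 over the 14 active beta genes, or 0.833 over all 22 with inactive genes at 0. The gamma and alpha points are not independent, because each entry contains all later ones, so these values describe the table only.

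The reads behind the gamma entries lay mainly at the downstream end. A gamma gene body held 159 RPM for Pcdhga1, 138 for Pcdhga12, 98.9 for Pcdhgc3, 53.9 for Pcdhgc4 and 37.5 for Pcdhgc5. The gene body length fell from 179.1 kb to 75.29 kb between Pcdhga1 and Pcdhga12 while the reads fell by far less, and a similar number of reads over a shorter length gives a higher density. In the differences between nested entries, 62.1% of the reads of Pcdhga1 lay past the gene body start of Pcdhgc3, in 34.46 kb, 24.4% lay between the gene body starts of Pcdhga12 and Pcdhgc3, in 40.8 kb, and 13.6% lay in the 104 kb between those of Pcdhga1 and Pcdhga12.

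The density between the gene body starts of Pcdhga1 and Pcdhga12 was 0.208 RPKmM, with rounding bounds of 0.196 and 0.22. It changed little along these A and B genes, with 0.181 (0.146 to 0.215) from Pcdhga1 to Pcdhga6, 0.225 (0.186 to 0.265) from Pcdhga6 to Pcdhga9 and 0.233 (0.202 to 0.265) from Pcdhga9 to Pcdhga12, and these bounds overlap. Single A and B variable exons were not resolved. Of the 18 stretches between neighbouring starts up to Pcdhga12, none had an upper bound above 0.712 or a lower bound above 0.179, and 9 had a lower bound of 0. The density was 0.952 (0.939 to 0.966) from Pcdhga12 to Pcdhgc3, 5.19 (5.16 to 5.23) from Pcdhgc3 to Pcdhgc4, 3.67 (3.61 to 3.72) from Pcdhgc4 to Pcdhgc5 and 1.76 from Pcdhgc5 to the end, a last stretch of 21.3 kb that holds the constant exons. The highest density thus followed the promoter of Pcdhgc3. As a gene body starts 1 kb after the promoter, each stretch also contains the promoter-proximal kilobase of the gene that begins the next stretch, where paused polymerases gather, so the 0.952 before Pcdhgc3 includes the start of Pcdhgc3. The bounds cover rounding only and not counting error, the spread between libraries or an entry that ends elsewhere than the shared end assumed here. With only unique 75 base sequences counted in the lengths, the density from Pcdhga1 to Pcdhga12 was 0.195 and the share past Pcdhgc3 was 63.1%.

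**Figure D4:**
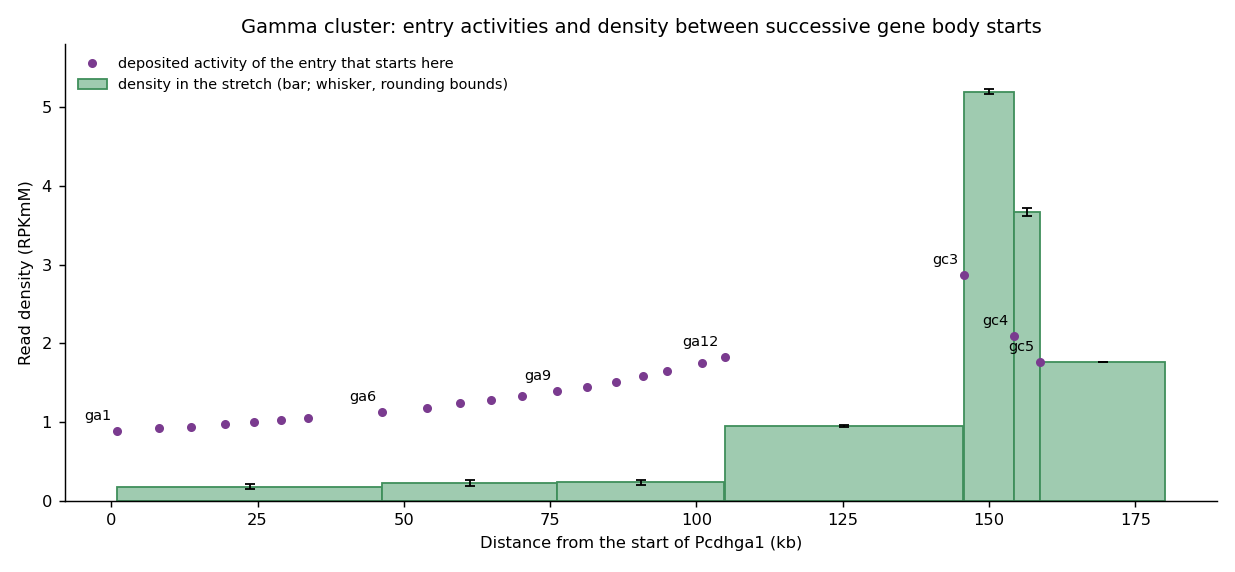
Read density in RPKmM along the gamma cluster against the distance from the start of Pcdhga1, in kb. Points are the deposited activities of the 22 entries, drawn at the start of each gene body, bars are the densities in 7 stretches between gene body starts, and whiskers are the bounds left by rounding. The points climb from 0.89 to 1.83 over a stretch whose own density stays near 0.208, and the tallest bar, 5.19, begins at Pcdhgc3.

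The table also holds 3 entries that run from an alpha promoter to the end of the gamma cluster: Gm37013, named Pcdha4-g in RefSeq, at 0.27 RPKmM, Gm38666 (Pcdha6-g) at 0.28 and Gm38667 (Pcdha7-g) at 0.28. They are no members by symbol, but their bodies run from Pcdha4, Pcdha6 or Pcdha7 through the rest of the alpha cluster and the whole of the beta and gamma clusters. Their activity was more than an order of magnitude above that of Pcdha4, Pcdha6 and Pcdha7, each at 0.01, which start at the same variable exons. Of their 240, 244 and 243 RPM, 66.5%, 65.2% and 65.7% were those of the gamma gene bodies, and 0.975%, 0.895% and 0.876% those of the alpha gene bodies, shares that rest on an alpha activity of a single rounding step. Between the alpha end and the gene body start of Pcdhga1, 475 kb that include the beta cluster, the differences were 78.1 (rounding bounds 71.5 and 84.6), 82.9 (76.5 to 89.3) and 81.2 (74.9 to 87.5) RPM. The bodies of the active beta genes held 22.7 of these, or 29.1%, 27.4% and 28.0%, so most sense reads of this interval lay outside the bodies of the active beta genes. Outside them lie the inactive beta genes, the first 1 kb of each beta gene and of Pcdhga1, the stretches between genes, and the annotated plus-strand gene 3222401L13Rik, whose share was not measured. Counted over unique 75 base sequences only, the interval held 57.4 to 61.5 RPM and the beta share was 36.6% to 39.2%. The gamma share of the 3 entries was then 71.1% to 72.4%. These interval values lie below the bounds given above, which cover rounding only. Unique sequences come closer to the mappable bases that RPKmM uses.

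The variable exons are similar in sequence, and the authors kept uniquely mapped reads only. The share of gene body positions that start a unique 75 base sequence in the mm9 genome was 85.5% to 100% for alpha, 96.6% to 100% for beta and 98.0% to 99.7% for gamma genes. The reading frame of the variable exon is 2373 to 2652 bases long in the alpha genes, 2319 to 2490 in the beta genes and 2232 to 2625 in the gamma genes. The median identity of a frame with its closest relative in the cluster was 77.2%, 75.8% and 72.2%, respectively. In the gamma cluster the median identity was 70.1% between A genes, 67.4% between B genes and 56.5% between an A and a B gene, but 53.7% between a C gene and the others, so the 3 C genes at the high-density end are also the most distant in sequence.

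The conserved element upstream of most variable exons of the clusters has the core CGCT, which was searched on both strands in the 300 bases from 250 before to 50 after annotated starts. CGCT was found at 22 of 22 beta starts, active or not, and at 8 of the 9 gamma starts that are annotated separately, the exception being Pcdhga12, whose annotated start lies 537 bases before its reading frame. Of 16671 other protein coding genes of the table, 74.9% had it, but 30.8% of the 2052 among them with 45% G and C or less. The median G and C content was 39.8% for the beta starts and 46.7% for the gamma starts, against 57.3% for the other genes, and Pcdhgc3 stood apart from the other gamma starts at 63.0%. The ratio of observed to expected CpG was 0.875 at Pcdhgc3, close to 0.87 at Pcdhga11. Its median was 0.434 over the 9 gamma starts, 0.42 over all beta starts, 0.389 over the active and 0.615 over the inactive beta starts. It was 0.63 over the other genes and 0.205 over those low in G and C. CGCT contains a CpG, so neither background set is matched to the beta starts. The gamma median of 46.7% G and C also lies above the 45% limit of the low set. A 12 base pattern of the CTCF binding core, searched in the same windows, was found at 2 of 22 beta starts, 1 active and 1 inactive, and at 0 of 9 gamma starts, beside 1830 of the 16671 other genes and 2.19% of those low in G and C. These matches describe letters in a window and not binding.

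Among the protocadherins outside the clusters, 6 of 12 genes were active, beside 70.2% of all entries in the table. Of these 6 genes, 4 were above 1 RPKmM. Here and below, a gene was counted as active if any of its entries was. Pcdh7 had entries at 4.17 and 0.77, Pcdh1, which lies on the same chromosome, was listed at 3.48, Pcdh19 at 2.41 and Pcdh18 at 1.45. Pcdh8 (0.04) and Pcdh20 (0.01) lay in the range of the alpha genes or just above it, and Pcdh9, Pcdh10, Pcdh11x, Pcdh12, Pcdh15 and Pcdh17 were marked Inactive. Of the large related cadherins, Fat1 was listed at 2.31, Fat4 at 0.1 and Dchs1 at 0.01, while Fat2 and Fat3 were Inactive. Among 11 classical and atypical cadherins 7 were active, led by Cdh15 (8.08), the M-cadherin of muscle, N-cadherin Cdh2 (2.38) and Cdh13 (1.79). The most active gamma gene, Pcdhgc3 at 2.87, thus lay above Cdh2 and below Cdh15.

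The genes for factors that act on the clusters in other cells were nearly all active. By entry, 13 of 14 were active for CTCF and cohesin and 18 of 18 for silencing and DNA methylation, beside 70.2% of all entries. Of 12 CTCF and cohesin genes 11 were active, from 0.99 to 12.74 with a median of 3.11 RPKmM: Ctcf was listed at 3.62, and the cohesin ring subunits Rad21, Smc1a and Smc3 at 5.06, 12.74 and 4.55. The exception was Ctcfl, a CTCF paralogue of the testis, which was Inactive. All 13 genes of a list of silencing and DNA methylation factors were active, with a median of 1.84. That list includes Tet1 (0.19), Tet2 (0.85) and Tet3 (1.89), enzymes that oxidise methylated cytosine and so act toward the removal of DNA methylation. Smchd1, which keeps protocadherin clusters repressed in several tissues, was listed at 1.7, the H3K9 methyltransferase gene Setdb1 at 5.31, its partner Trim28 at 8.58, and the maintenance DNA methyltransferase gene Dnmt1 at 2.04 to 2.31. The de novo DNA methyltransferase genes were lower, with Dnmt3a at 0.51 to 0.63 and Dnmt3b at 0.28.

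All 16 genes reported of proteins that bind or process the protocadherins were active, with a median of 2.02 RPKmM and a range of 0.01 to 18.1. All 21 of their entries were active, beside 70.2% of all entries. The cytoplasmic tails of alpha and gamma protocadherins bind the kinases Ptk2 (3.03 and 3.09 for its 2 entries) and Ptk2b (1.53 and 1.93). The WAVE complex genes ran from Nckap1 at 3.95, Brk1 at 3.54, Abi1 at 3.36, Wasf2 at 2.74 and Cyfip1 at 1.56 to Abi2 at 0.86, Wasf1 at 0.59 and Cyfip2 at 0.01. Adam10, the sheddase that cuts gamma protocadherins, was listed at 2.22.

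**Figure D5:**
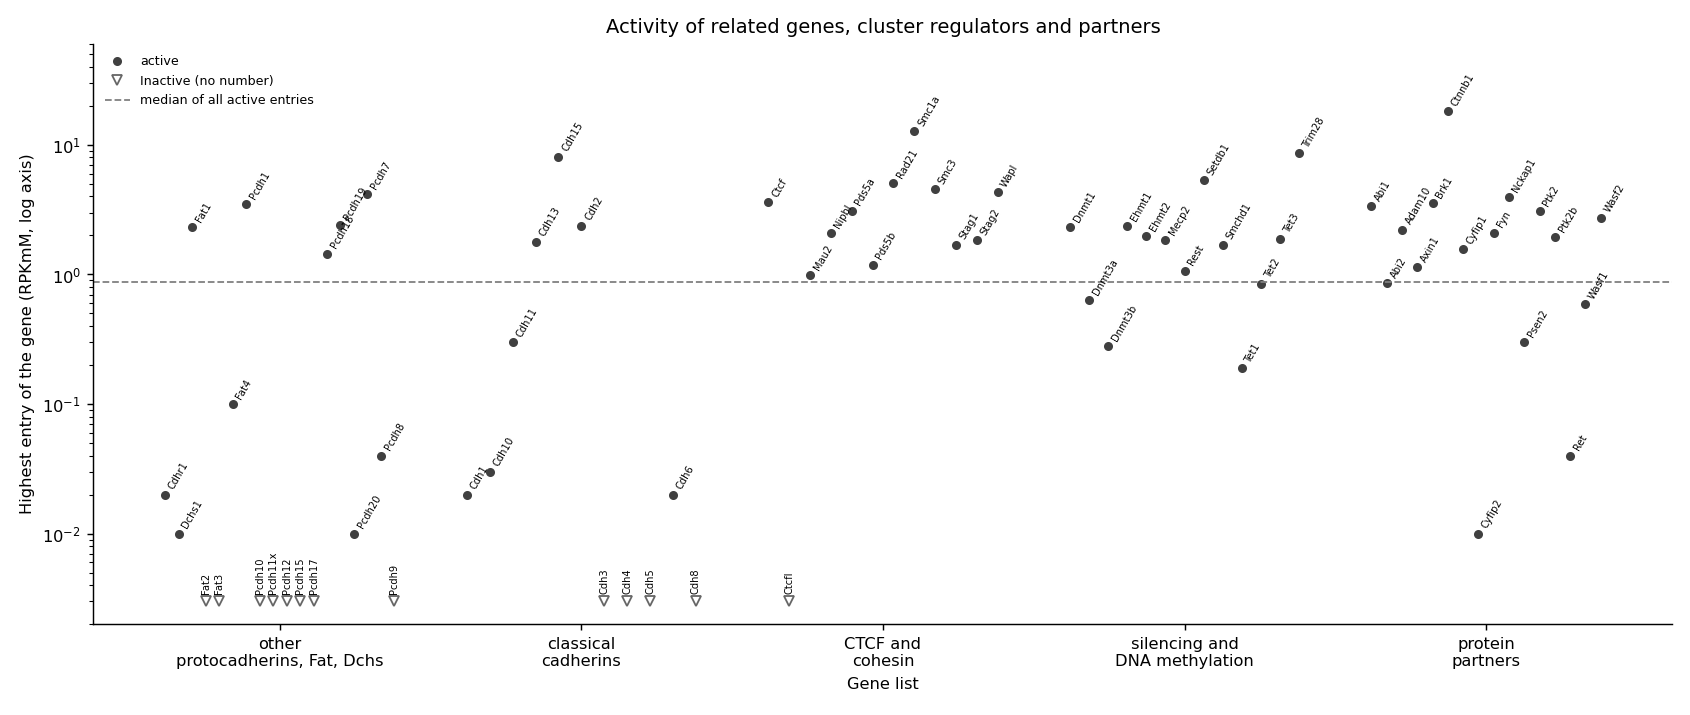
Activity in RPKmM (log axis) of the genes of 5 lists, with 1 point per gene at its highest entry, open triangles for genes marked Inactive, and a dashed line at the median of all active entries (0.87). The CTCF and cohesin genes lie above that line except for Ctcfl, and the protocadherins outside the clusters spread from Inactive to 4.17.

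All 6 myoblast markers were active, from 0.82 for Msc to 72.45 for Des, with Myod1 at 2.39 and Myf5 at 5.03. Of 10 neuron markers 7 were called active, with 9 of their 16 entries, beside 70.2% of all entries. Rbfox3, Elavl4 and Snap25 were Inactive, Dcx was listed at 0, Syt1 and Elavl3 at 0.01, Map2 at 0.58 and 0.62 and Syn1 at 0.81, but Tubb3 was listed at 6.01 and Nefl at 8.43. The astrocyte and endothelial markers Gfap (1 of its 2 entries, the other being Inactive), Pecam1 and Tek were listed at 0.01, and Aqp4 and Cdh5 were Inactive. Gene body activity is a density of engaged polymerase and gives no level of mature RNA or protein, so which of the 58 isoforms these cells make cannot be read from it.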

How the data were processed

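GRO-seq of 2 libraries of C2C12 myoblasts was used as a single table. The authors (whose processing notes also name CASAVA 1.8) mapped reads to mm9 with Bowtie2, kept unique reads outside rRNA and tRNA repeats, pooled both libraries, and deposited gene activity as RPKmM, an RPKM over mappable bases rounded to 2 decimals, for genes of at least 2 kb. Pooling hides the spread between libraries, rounding leaves few values among low genes, and the table holds no read numbers. All 58 members were found by symbol and no value was filtered. Members and gene lists were chosen with earlier results of these data known. Every member and every gene of the lists found in the table by symbol could be named, except 1 gene of the list of protein partners that is not reported here. Dchs2 was not matched, and the list of CTCF and cohesin genes names Wapl under an older symbol as well.

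Beta positions are those of GENCODE vM1 (mm9). Alpha and gamma genes, of which 9 of 14 and 9 of 22 starts are annotated separately, were placed by the 14 and 22 variable-exon reading frames of 2200 to 2700 bases in the mm9 sequence, in the neighbour order of the RefSeq table (GRCm38.p6). Gamma starts without annotation were set 168 bases, the median distance, before the frame, and alpha starts at the frame. Every alpha and every gamma entry was assumed to end at the last annotated end of its cluster, on which all stretch values rest. Activity times body length (start plus 1 kb to the end, in kb, with all bases counted, mappable or not) gave depth-scaled reads (RPM). Differences between nested entries, divided by length, gave stretch densities, with bounds from moving each activity by 0.005. Whether these densities hold with counting error, or with entries that end elsewhere than the shared end, was not tested. Values per library were not used here, so no test across replicates was run. Python 3.11.15, numpy 2.4.6, pandas 2.3.3, scipy 1.17.1, matplotlib 3.10.9 and biopython 1.88 were used.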

Additional observations from a re-analysis of the deposited data

How the results depend on the processing

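Of 62 alternative values for 17 results, 57 moved by at most 1.5 times and none reversed. Many of these could not move. Each gene has 1 entry, no active member lies below 0.01, and no alpha or gamma gene is inactive. Settings that change only such entries returned the same value, so the count of 57 overstates how far the results were tried. With an activity of at least 0.1 required, 0 alpha genes (from 14) and 9 beta genes (from 14) counted as active, since the others are listed at 0.01 or 0.02. With inactive genes counted at 0, the beta median was 0.015 (from 0.15), the ratio of gamma to beta 87.0 (from 8.7) and that of beta to alpha 1.5 (from 15), because 8 of 22 beta genes then enter at 0. Gamma starts at the reading frame, chosen after seeing the data, gave a density of 0.215 from Pcdhga1 to Pcdhga12. Rounding limits every alpha value. No paired analysis was possible because the table holds a single pooled value per gene, and for that reason no library could be left out.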
